A study of Drosophila melanogaster with 3 samples.

Results

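The 697 peaks described here were the Xbp1-GFP binding peaks whose rank was highest in replicate 2 relative to replicates 1 and 3. They were selected from 7291 peaks of the dm6 list that the authors had thresholded by the irreproducible discovery rate (IDR), a measure of how repeatable a peak is between replicates. Of those, 6966 were overlapped by 1 bp or more in the peak list of every replicate, and each took, in each replicate, the highest signal of its overlapping peaks, turned into a rank percentile from low to high among the 6966. The shift of a peak was its replicate 2 percentile minus the mean of its percentiles in replicates 1 and 3, and the members were the tenth of the peaks with the largest shift, 10% by construction. The data came from ChIP-seq, in which DNA bound by a protein is precipitated with an antibody and sequenced, on whole Drosophila melanogaster embryos, males and females pooled, at an age of 0 to 24 h. All 3 samples were biological replicates of 1 group, a transgenic line that stably carried Xbp1 with GFP fused to its C terminus, and there was no second genotype or treatment. The antibody recognised GFP, and sheared chromatin fragments measured 200 to 800 bp. Whole embryos mix all tissues and stages, so a peak cannot be placed in a cell type.

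Xbp1 is a basic leucine zipper transcription factor of the unfolded protein response (UPR). When unfolded proteins build up in the endoplasmic reticulum (ER), the membrane sensor Ire1 cuts the Xbp1 mRNA, and the spliced message encodes the active factor. In animals it is known to act on genes for ER folding, protein export and lipid synthesis, and to bind the UPR element, an ACGT-centred sequence related to the cyclic AMP response element (CRE). Because the members were selected on replicate ranks, those ranks are given as description only. Location, sequence and gene content were not used by the rule, but 1 library defines the contrast and peaks are not replicates, so no p-value was computed. Shares carry exact Clopper-Pearson 95% intervals that cover counting error over peaks only.

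Of the 19 motifs searched, the UPR element TGACGTGG had the largest share of its peaks among the replicate 2-high peaks. It lay within 50 bp of the summit, on either strand, in only 38 of the 6966 peaks, and 28 of these, 73.7%, were members. The sites of 9 members are shown as 30 bases on the strand that reads TGACGTGG, which is in capitals, in the dm6 build (Release 6 sequence).
Agpat3, chr3L:16385539-16385568, plus strand: gtggggtggcgTGACGTGGttaacatttat
SrpRalpha, chrX:11129054-11129083, minus strand: cgctaggcaagTGACGTGGaacgtgtggca
Sec23, chr3R:5649282-5649311, plus strand: ctgtcaatccgTGACGTGGcctgaccgacc
Sec22, chrX:806090-806119, plus strand: ggacataccggTGACGTGGttacattgcaa
Gmap, chrX:15486600-15486629, plus strand: aatttatgaagTGACGTGGctctctctttg
Sec24CD, chr2L:2236795-2236824, minus strand: aattagggaacTGACGTGGaagttcgttta
SsRbeta, chr3L:16129611-16129640, minus strand: tcggtggttcgTGACGTGGaatggattcgc
CNPYb, chr3L:19096172-19096201, plus strand: aataataaaccTGACGTGGaaatgccgctc
ergic53, chr3L:8535201-8535230, minus strand: gccaaaacaacTGACGTGGagctgcgtctt
These 9 are among the 16 members with the element at a promoter and were picked for the roles of their genes after the values were seen; the other 7 lay at CG17598, alt, Ald1, CG34021, l(2)SH0834, TER94 and CG1840. Of all 28 members with the element, 8 lay at the promoter of a gene in the secretory lists used below. Such promoter peaks made up 32 of all 697 members and 111 of all 6966 peaks. Peaks with the element that were not members also lay at genes of these lists, at Gp93, KdelR, Ostgamma and Sec61beta. Agpat3 encodes an acyltransferase of phospholipid synthesis, SrpRalpha the docking receptor of the signal recognition particle, and SsRbeta a translocon-associated subunit. Sec23 and Sec24CD form the inner COPII coat of vesicles that leave the ER, Sec22 is a SNARE of ER to Golgi traffic, ergic53 a lectin-type cargo receptor, Gmap a Golgi-associated protein and CNPYb a protein of the canopy family. A further 10 peaks carried the same element and were not members. The 3 sites that follow were picked from these for the roles of their genes. The rest lay nearest to CG5509, CG10737, CG1910, simj, Hnf4, CG12539 and Sec61beta.
Gp93, chr3R:27948788-27948817, plus strand: tctgttattcgTGACGTGGcctttcgccgg
KdelR, chr2L:10426893-10426922, minus strand: ggcataaacaaTGACGTGGctgatgaataa
Ostgamma, chr2L:8307952-8307981, plus strand: ccaccgaaaagTGACGTGGccacaaacaaa
Gp93 is the fly GRP94 chaperone, KdelR the receptor that returns ER proteins from the Golgi, and Ostgamma a subunit of the oligosaccharyltransferase, whose other promoter peak was a member.

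The element also occurred away from promoters. Of 12 such members, 4 were picked after the values were seen, and Ero1L, Pdi and Grp170 among them are genes of ER folding. The rest lay nearest to spen, Pdk1, osp, CG5346, Mi-2, Cyp12e1, CG5151 and Pcyt1. For the 4, the bases from 50 bp before to 50 bp after the summit are shown on the plus strand of dm6. The element is in capitals, and each window lies outside UTRs.
Ero1L, chr3L:4171619-4171719, plus strand: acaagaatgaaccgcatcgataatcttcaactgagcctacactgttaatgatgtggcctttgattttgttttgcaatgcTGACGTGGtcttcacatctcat
Pdi, chr3L:15140517-15140617, plus strand: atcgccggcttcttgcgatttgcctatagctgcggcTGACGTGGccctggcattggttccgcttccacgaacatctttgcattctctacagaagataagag
Grp170, chrX:2273927-2274027, plus strand: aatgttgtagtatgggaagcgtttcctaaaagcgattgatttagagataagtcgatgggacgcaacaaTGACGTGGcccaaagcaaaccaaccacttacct
pan, chr4:68632-68732, plus strand: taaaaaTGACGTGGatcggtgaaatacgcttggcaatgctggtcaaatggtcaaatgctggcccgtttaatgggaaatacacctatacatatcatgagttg
Ero1L, 1265 bp downstream of the start site, encodes the ER oxidase that supplies disulfide bonds, and Pdi, 2025 bp downstream, the disulfide isomerase that it drives. Grp170, 801 bp downstream, encodes a large ER chaperone of the Hsp70 class. The pan summit, 644 bp upstream of the nearest start site, lay between genes near the gene for the fly TCF factor of Wnt signalling.

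Every peak with the UPR element ranked higher in replicate 2 than in the mean of the other replicates. The shift was above 0 in 38 of 38 such peaks and at least 5.28 points, whereas 3090 of all 6966 peaks (44.4%) had a shift above 0. With the 6966 peaks in 10 equal groups by shift, from high to low, the element was in 28, 5 and 5 peaks of the first 3 groups and in 0 of the other 7. The same selection rule turned to replicate 1 and to replicate 3 gave 697 peaks each, and 0 of either carried the element, which allows a share of up to 0.528% (upper limit of the exact interval). The shifts of a peak for replicates 1, 2 and 3 add up to 0, so these selections are not independent of the members. Among members the share was 4.02% (2.69 to 5.75%), and among the 6269 other peaks 0.16% (0.0765 to 0.293%). In non-overlapping genome tiles of the same length it was 0.133%, and in windows centred on protein-coding start sites 0.171%. The share depended on GC, the percentage of G and C bases in the window. No window under 35% GC held the element, a class of 127 members and 3792 others. At 35 to 45% GC it was in 3.25% of members against 0.229%, and at 45% and over in 6.48% against 0.823%.

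Values of single members are given next as a description, since replicate 2 ranks high in them by the selection rule. At Agpat3 the signal, in units of the authors' peak caller that differ in scale between lists, was 34.7, 182 and 28.8 in replicates 1, 2 and 3. These put the peak at percentiles 0.0574, 74.2 and 3.50, so it was near the bottom of the list in replicates 1 and 3 and in the upper part in replicate 2. SrpRalpha stood at percentiles 12.3, 80.4 and 21.8, and Sec22 at 41.0, 83.9 and 25.3. Sec23 stood at 44.0, 92.7 and 37.3, and Ero1L, with its intronic site, at 9.07, 61.0 and 11.8. In these peaks replicates 1 and 3 lay within 16 points of each other. That was not so in every member, since the rule takes the mean of the 2. A member peak at eIF3h, without the element, stood at 53.8, 74.2 and 0.0431. The member Atxn7 stood at 51.8, 48.5 and 0.603, lower in replicate 2 than in replicate 1. The strongest members with the element were ergic53, with percentiles 69.6, 96.7 and 80.1, and CNPYb, with 70.7, 96.2 and 78.0. Percentiles end at 100, so a peak already near the top in all replicates cannot reach the boundary of the members: Gp93 stood at 92.8, 99.7 and 92.5 and KdelR at 89.4, 99.4 and 90.2. Their shifts were 7 and 9.55 points, against a median of 46.1 over the 28 members with the element. Not all non-members with the element stood near the top. The peak nearest to CG10737 was at percentiles 0.876, 21.9 and 4.74, and that nearest to CG12539 at 5.86, 23.4 and 28.8.

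**Figure D1:**
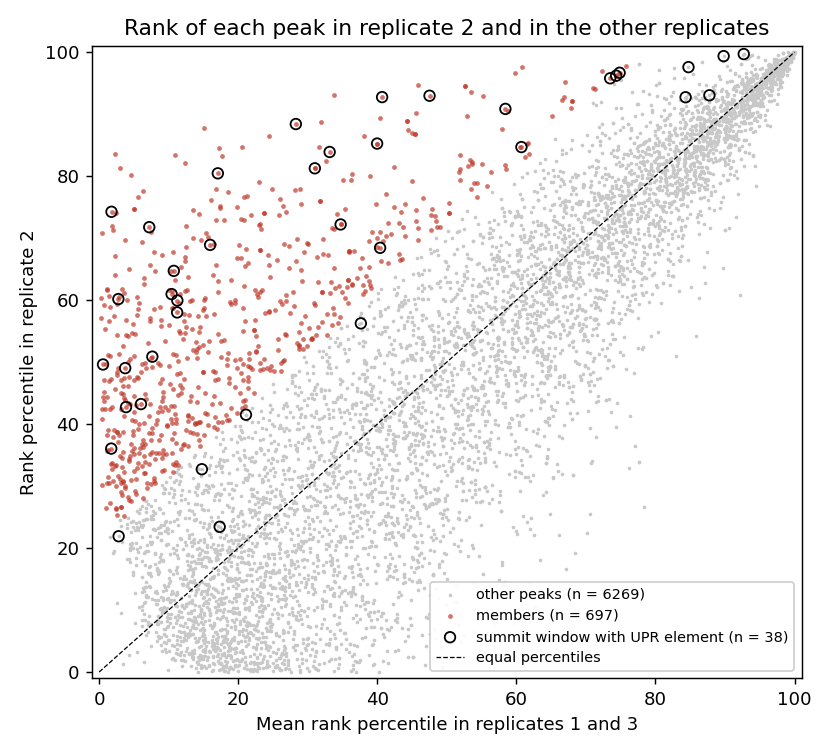
Each point is 1 of 6966 peaks, plotted by its mean rank percentile in replicates 1 and 3 (x axis) and its percentile in replicate 2 (y axis). The 697 members are red, the 6269 others grey, the dashed line marks equal percentiles, and black rings mark the 38 peaks with the UPR element, which all lie above that line.

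Of the 28 members with the element, 16 lay at promoters, taken as a summit within 500 bp of a protein-coding start site, and 12 did not. The bases beside the element were counted as well. The base after it was C in 16 of 38 peaks, T in 12, A in 9 and G in 1, and the base before it was T in 1. Among the members alone the base after it was C in 11, T in 9, A in 7 and G in 1. Other members with the element lay in an intron of osp, 34003 bp from the start site (percentiles 3.32, 60.2 and 2.21), and 1019 bp upstream of Pdk1, a kinase of insulin signalling (22.2, 88.4 and 34.4). Pcyt1, which encodes the rate-limiting enzyme of phosphatidylcholine synthesis, had its summit 543 bp from the start site (64.0, 90.8 and 52.8). The element sat close to the summit. Among the 36 members with a copy within 250 bp the median distance was 23.5 bp, and among 36 other peaks 81.0 bp. A shorter distance in members was not particular to this element. For the motifs TGACGT and TATCGAT, described below, it was 52.5 against 134 bp and 41 against 76 bp.

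The shorter TGACGT, found in the CRE, was also more frequent in members, though a smaller share of its peaks were members. It is contained in TGACGTGG, so these counts include the 38 peaks above, 28 of them members, which were not removed. It lay in 69 members, 9.90% (7.78 to 12.4%), and in 1.95% (1.62 to 2.32%) of the other peaks, against 2.08% of genome tiles and 2.82% of start-site windows. Of all 191 peaks with TGACGT, 69 (36.1%) were members and 131 had a shift above 0, with a median shift of 8.97 points. In the replicate 1-high and replicate 3-high peaks the share was 1.58% in both. The difference between members and the rest, 7.95 percentage points, was 13.7 with the top 5% as members and 4.65 with the top 20%, and 5.01 with peaks of q 0.05 or less in every replicate only. It depended on base composition: with GC under 35% the share was 0.787% in 127 members and 1.16% in the others, a reversed difference of -0.373 points that rests on 1 member. With GC of 35 to 45% the difference was 4.82 points, and with GC of 45% and over 11.4 points (16.4% against 4.94%). At promoters, where 491 members lay, the share was 8.76% against 2.92%, and away from promoters 12.6% against 1.14%.

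Several promoter sequences were also more frequent among members. The DNA replication-related element (DRE), TATCGAT, bound by the promoter factor Dref, lay in 14.9% (12.4 to 17.8%) of member windows and 4.83% (4.32 to 5.39%) of the others, against 1.28% of genome tiles and 8.81% of start-site windows. Examples from members are shown as 29 bases of dm6 with the DRE in capitals, since this sequence marks promoters of housekeeping genes in flies.
SrpRalpha, chrX:11129102-11129130, plus strand: gctacgcgcgtTATCGATatcgaaagctg
TM9SF4, chr2L:13771025-13771053, plus strand: gtattgcctctTATCGATagtcgataatt
Bka, chr2L:9895050-9895078, plus strand: tggcggccaacTATCGATgtctctgaatg
bel, chr3R:8660441-8660469, minus strand: ccgaccgcatcTATCGATtcctcatcgat
SrpRalpha thus carried both a UPR element and a DRE. TM9SF4 encodes a membrane protein of the nonaspanin family, and bel a DEAD-box RNA helicase of translation.

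The DRE was more frequent at promoters in members and other peaks alike, and at promoters it was more frequent in members. There it was 20.4% of members and 9.46% of other peaks, and away from promoters, where 206 members lay, 1.94% and 0.993%. TGACGT and the DRE were together in 6 members, while 69 had TGACGT and 104 had the DRE. The 5-base CGATA, bound by the insulator protein BEAF-32 and contained in the DRE on its reverse strand, was in 33.3% and 17.3%, and the Motif 1 core GGTCACAC, another fly core promoter sequence, in 4.88% and 1.07%. The E-box CAGCTG was in 10.6% (8.43 to 13.1%) of members and 3.33% (2.90 to 3.81%) of others, and GAGAG, the GAGA factor sequence, in 13.8% and 9.03%. The core of the UPR element, ACGTG, was in 21.2% and 6.51%, and CCACG, found in the mammalian ER stress element, in 15.4% and 5.22%; both are contained in TGACGTGG or its reverse strand. TGTTTAC of Fox factors was in 5.74% and 2.65%, the E-box CACGTG in 2.30% and 0.75%, and the repeat CACACACA in 3.01% and 0.702%. A pair of AT-rich motifs went the other way: the TATA box TATAAA was in 11.5% (9.21 to 14.1%) of members and 21.0% (20 to 22%) of others, and TAATTA, the homeodomain sequence, in 4.30% (2.92 to 6.09%) and 9.95% (9.22 to 10.7%). TATAAA was in 11.7% of genome tiles and 15.5% of start-site windows, and TAATTA in 6.47% and 2.99%. For the motifs given above as more frequent in members, the other peaks lay below the start-site share. Start-site windows held the Motif 1 core in 4.68%, CAGCTG in 8.77%, GAGAG in 12.7% and CACGTG in 1.82%, each inside the members' interval. They held CGATA in 23.6%, ACGTG in 11.2%, CCACG in 10.1%, TGTTTAC in 3.18% and CACACACA in 1.81%, each below it. The shares for CAGGTAG of the early activator Zelda (0.287% and 0.447%), TGATAA of GATA factors (8.18% and 9.14%), TTCNNNGAA of STAT (2.73% and 2.95%), TGANTCA of AP-1 (3.16% and 2.57%) and AACNNGTT of Grainyhead (4.30% and 3.88%) had intervals that overlapped.

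**Figure D2:**
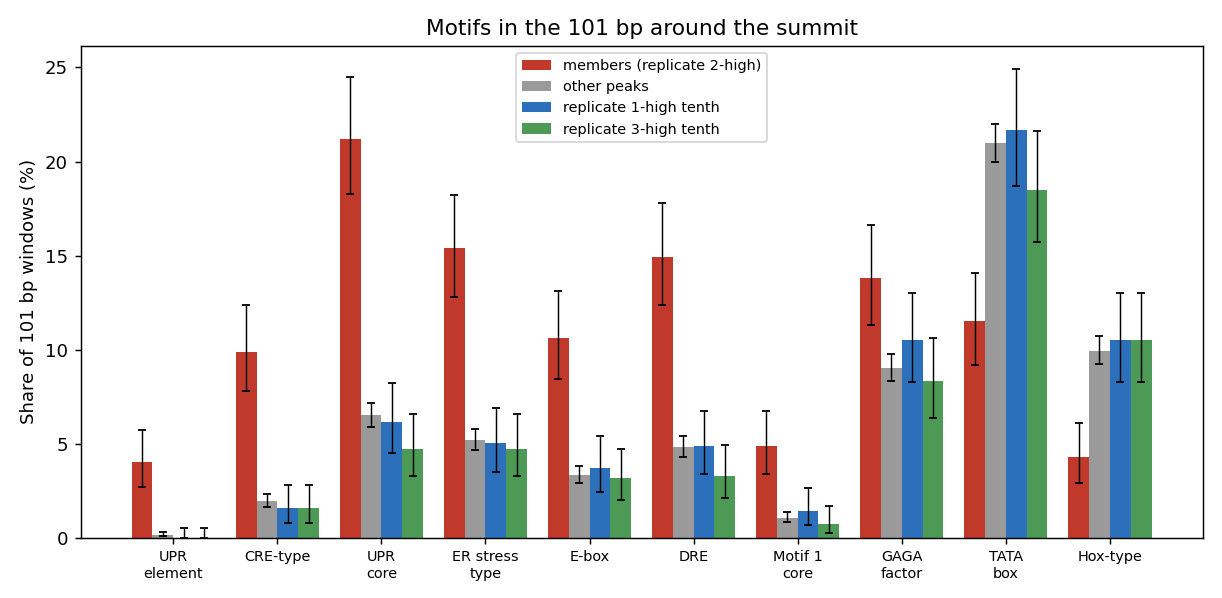
Bars give the share of summit windows (50 bp to each side) that hold each motif (y axis, percent, motifs on the x axis) in members, the other peaks and the replicate 1-high and replicate 3-high peaks, with exact 95% intervals. The DRE bar is 14.9% in members and 4.88% and 3.30% in the replicate 1-high and replicate 3-high peaks.

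Members lay at gene starts. Of the 697, 491 (70.4%, 66.9 to 73.8%) had their summit at a promoter, against 2845 of 6269 others (45.4%, 44.1 to 46.6%), so 14.7% of all promoter peaks were members. The share was 38.2% (34.5 to 41.9%) in the replicate 1-high and 37.3% (33.7 to 41.0%) in the replicate 3-high peaks. The median distance to the nearest start site was 84 bp in members and 724 bp in the others. Summits in 5' UTRs were 20.7% (17.7 to 23.9%) against 6.84% (6.23 to 7.50%), and summits in introns 29.0% (25.6 to 32.5%) against 45.9% (44.7 to 47.2%). Sequence between genes held 45.3% and 42.4%, and coding exons held 6 members (0.861%) and 25 others (0.399%). Promoters shared by 2 or more genes held 22.1% (19.1 to 25.4%) of members and 18.5% (17.5 to 19.5%) of others. Among promoter peaks alone the order was reversed, with 31.4% (27.3 to 35.7%) of members and 40.7% (38.9 to 42.6%) of others. The X chromosome held 90 members (12.9%, 10.5 to 15.6%) and 19.9% (18.9 to 20.9%) of the others, and arm 2R held 19.9% and 16.8%.

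The promoter difference of 25.1 points depended on the measure that was ranked. When the ranks were taken from the −log10 q-value in place of the signal, 292 of the 697 members (41.9%) were chosen again and the difference was 2.90 points (50.5% against 47.6%). That column is bounded: 87.3%, 95.6% and 68.4% of the 6966 peaks held the highest value of their list in replicates 1, 2 and 3, so most ranks were ties. With those ranks the difference in TGACGT was 4.13 points. Whether the ties account for the smaller differences was not tested.

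**Figure D3:**
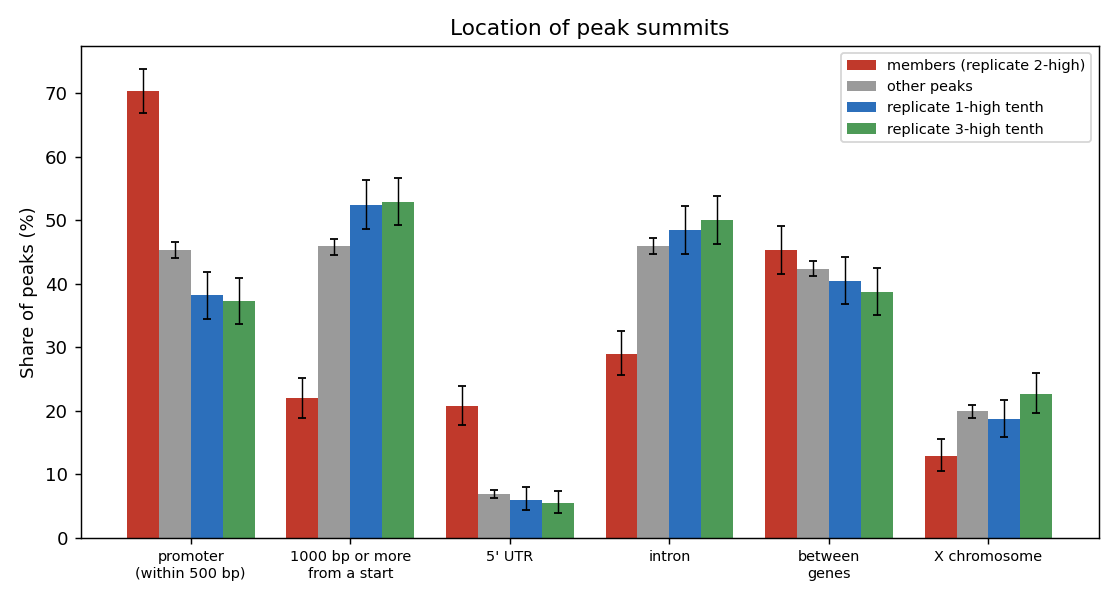
Bars give the share of summits (y axis, percent) in each location class (x axis) for members, the other peaks and the replicate 1-high and replicate 3-high peaks, with exact 95% intervals. Members stand at 70.4% for promoters, the other 3 groups between 37.3% and 45.4%.

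The summit windows of members held more GC than those of other peaks. GC averaged 42.8% ± 8.94 (SD over 697 peaks) in the windows around member summits and 34.1% ± 8.53 (SD over 6269) in the others, with 34.2% in the replicate 1-high and 34.8% in the replicate 3-high peaks. Genome tiles averaged 42.2% and start-site windows 43.7%, so member windows were near the genome's own composition and the other windows below it. The difference of 8.67 points was 3.65 in windows reaching 150 bp to each side, 3.63 over whole peaks and 3.8 with ranks from the q-value. Repeat-masked bases made up 13.1% of member windows and 20.4% of the others.

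The promoter share of members was also the higher one at like base composition and at like signal. Within GC classes the promoter share was 60.6% against 38.5% under 35% GC, 68.6% against 51.0% from 35 to 45%, and 76.5% (71.2 to 81.2%) against 67.8% (64.2 to 71.1%) at 45% and over. Within 3 equal classes of pooled signal it was 66.8% against 34.6%, 74.0% against 43.2% and 74.5% (61.0 to 85.3%) against 56.7% (54.6 to 58.7%), from weak to strong. Over the 10 groups by shift the promoter share ran 70.4, 60.8, 52.3, 46.8, 52.2, 43.5, 42.2, 36.7, 33.0 and 40.9%. It fell over most of the list, with rises at the fifth and the last group. GC instead fell from 42.8% to 36.9% and 35.3% in the first 3 groups and then stayed between 32.4% and 34.4%.

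**Figure D4:**
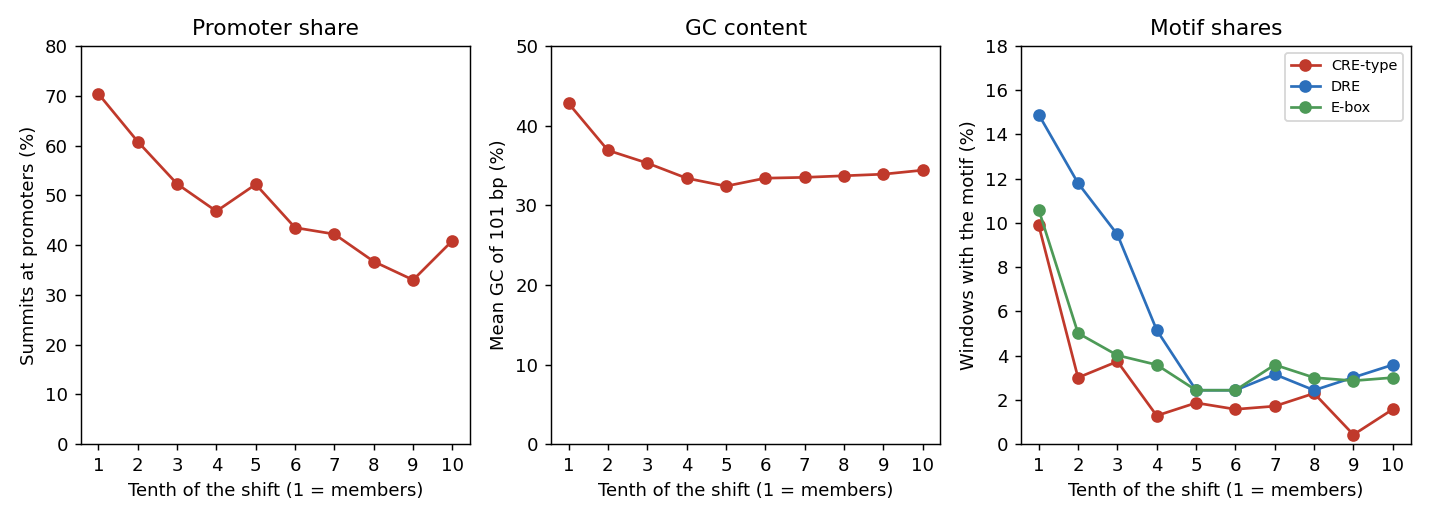
The x axis gives 10 equal groups by shift, 1 being the members, and the y axes give the share of summits at promoters, the mean GC of summit windows and the share of windows with TGACGT (CRE-type), the DRE and the CAGCTG E-box, all in percent. Promoter share, GC and the 3 motifs are all highest in the members.

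Promoters of protein export genes were members in a larger share of cases than promoter peaks as a whole. Of 111 promoter peaks at genes listed for folding, degradation, translocation, glycosylation, vesicle and Golgi transport, 32 (28.8%) were members, beside 14.7% of all 3336 promoter peaks, with a median shift of 8.13 points beside 0.538. These lists were drawn up with earlier results of the same data known, and no set test was run. The members included 12 of 32 peaks for vesicle transport and 6 of 16 for N-glycosylation, and all 16 of the latter had a shift above 0. For ER chaperones 4 of 25 peaks were members (16%), although 22 of 25 had a shift above 0, and for ER-associated degradation 2 of 12, both at TER94, the fly VCP ATPase.

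The vesicle transport genes named next are the members, 12 of 32 peaks, and 23 of the 32 had a shift above 0. Other genes of the same coats were not members. Among these, Sec13 of COPII had a shift of -18.2 points, and deltaCOP and alphaCOP of COPI had -0.553 and -0.129. Sar1, the GTPase that starts COPII assembly, had signals of 104, 156 and 41.7 in replicates 1, 2 and 3, at percentiles 26.9, 66.8 and 12.8. Sec24CD, with its UPR element, had signals of 159, 360 and 70.1, at percentiles 53.2, 93.0 and 41.8. As in all members, these ranks are what the rule selected on. For COPI, Arf1, the GTPase that recruits the coat, stood at percentiles 20.7, 74.0 and 8.13, zetaCOP at 10.1, 70.8 and 20.6 and gammaCOP at 51.2, 89.7 and 54.7. Rab1, a GTPase of ER to Golgi traffic, and the SNARE genes Membrin and Syx18 were members with shifts of 38.3, 25.9 and 31.5 points.

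Translocation and signal peptide processing had 6 members of 19 peaks. SrpRbeta, partner of SrpRalpha, stood at percentiles 18, 67.3 and 30.5, twr, a signal peptidase subunit, at 22.3, 74.7 and 48.3, and Sec61gamma, a channel subunit, at 52.3, 61.5 and 24.2. In glycosylation, GCS2alpha, the catalytic subunit of glucosidase II, had the largest shift of its list, 56.1 points, from percentiles 10.2, 68.6 and 14.8. The oligosaccharyltransferase subunit Ost48, the mannosyltransferase Alg9 and the folding sensor Uggt shifted by 49.2, 30.1 and 29.3 points. The 2 member peaks at SsRbeta, at percentiles 28.6, 72.2 and 40.8, and the 2 at Gmap fell on the same replicate peaks, as did 28 members in all that shared every replicate peak with another thresholded peak, so such pairs are not separate measurements. Among chaperone genes wbl, which encodes a disulfide isomerase-like protein of dorsoventral patterning, had the largest shift, 53.5 points, with signals of 64.0, 152 and 49.0, and ERp44 shifted by 31.7 points.

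Broadly expressed genes outside the secretory pathway were members as well. Cytosolic ribosomal proteins had 22 members among 78 promoter peaks (28.2%), 72 of 78 with a shift above 0 and a median of 14.2 points. Their largest shift, 71.7 points, was at sta (FBgn0003517, peak at chrX:1483121-1483524), which encodes ribosomal protein SA: the signals were 52.7, 181 and 29.1 and the percentiles 1.13, 74.1 and 3.62. RpLP1 (60.1 points), RpL35A (56.1) and RpL9 (55.1) followed, and 6 ribosomal peaks had a negative shift, RpL26 (-25.8) the lowest. Respiratory chain and ATP synthase genes had 9 members of 36 peaks, led by ATPsynF (47.2 points), mitochondrial ribosomal proteins 10 of 46, led by mRpL51 (45.6), and translation factors and tRNA synthetases 8 of 42, led by eIF3h (47.3). Glycolysis had 3 of 15, led by the aldolase gene Ald1 (48.7), which carried a UPR element, and the proteasome 4 of 21, led by Rpn10 (37.7). These 6 lists together gave 56 of 236 (23.7%), a share below that of the secretory lists and above that of all promoter peaks.

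The remaining lists varied from 0 members to shares above that of all promoter peaks. Signalling components had 3 members of 30, 2 of them at puc, the JNK phosphatase, with the larger shift 58.5 points. Cell cycle genes had 2 of 18 (Dp, the E2F partner, 28.2 points), DNA replication 1 of 16 (Orc1, 30.5), autophagy 2 of 16 (Atg12, 37.0), cytosolic heat shock 1 of 8 (Hsp83, 28.2) and insulator and core promoter proteins 2 of 16 (cg, 43.4). Chromatin regulators had 6 of 27 (22.2%), led by the histone demethylase gene Kdm2 (59.8). ER stress signalling had 1 of 7, PPP1R15, which restrains the eIF2 alpha branch of the stress response (31.8). Genes for bZIP factors had 0 of 15 and germ line genes 0 of 9. The Xbp1 peak, a bZIP entry, had a shift of 0.0144 points because it was at or next to the top of every replicate. Peaks with small nucleolar RNA genes within 500 bp had 6 members of 17 (35.3%), the largest shift being 50 at Bka, and those with transfer RNA genes 4 of 15 (26.7%). The same pair of member peaks, near snoRNA:185 and tRNA:Glu-TTC-1-5 and with an equal shift of 32 points, was counted in both lists.

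Tissue and stage lists gave few promoter peaks each, and so few members. Neuronal genes had 2 peaks and 0 members, Hox genes 1 and 0, early zygotic genes 2 and 0, fat body and hemocyte genes 1 and 0, and cuticle proteins had 0 peaks. Muscle genes had 1 member of 9, at Mef2 (27.4 points), and gut and trachea and salivary gland lists shared 1 member, at fkh, the fork head factor of both tissues (peak at chr3R:28585278-28585681, 67.3 points, percentiles 27.1, 84.5 and 7.28). Patterning genes had 1 of 3 (ush, a GATA cofactor, 44.0), the ecdysone pathway 2 of 6 (Eip78C, 31.0), histones 1 of 4 (His3.3A, 38.9), microRNAs 3 of 12 (mir-9378, 60.7) and chemoreceptors 1 of 2 (Gr63a, 43.4, beside Lamtor4 at the same promoter). Golgi and nucleotide sugar transport had 2 of 7, both at Gmap.

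**Figure D5:**
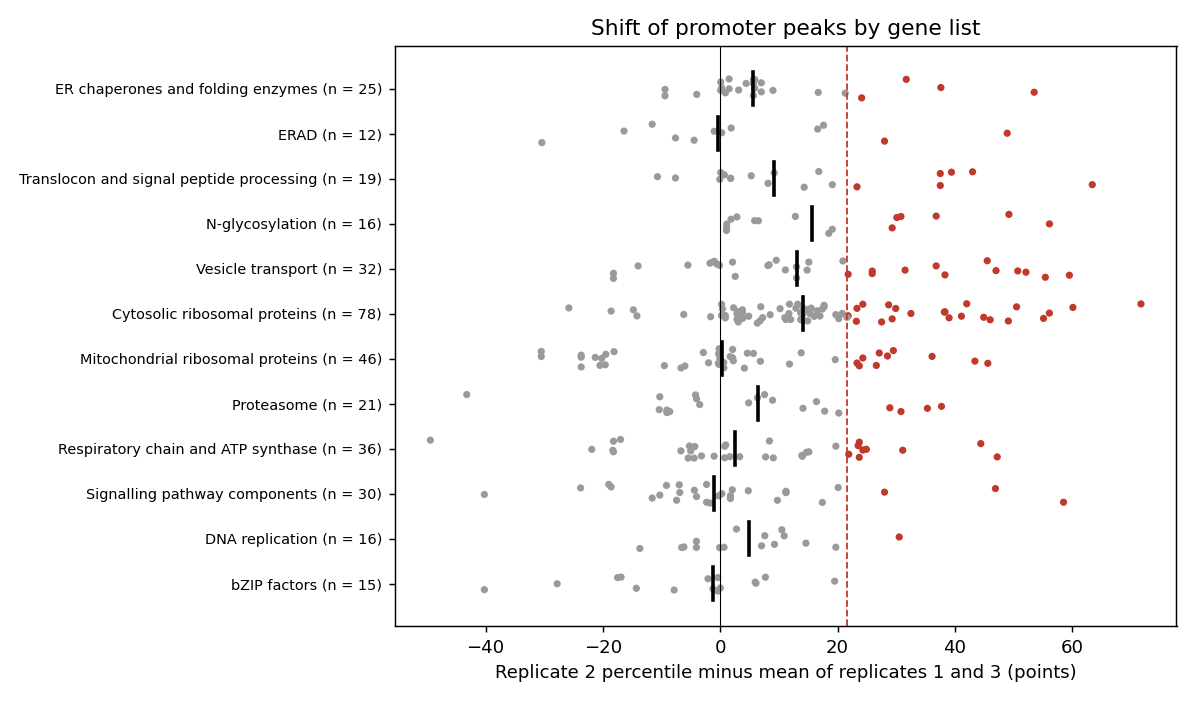
Each point is a promoter peak of a listed gene, placed by its shift in percentile points (x axis) in the row of its list (y axis, n peaks), red for members and grey for others, with black bars at the list medians and a dashed line at the member boundary. Of the 12 lists plotted, bZIP factors have the lowest median (-1.25) and N-glycosylation the highest (15.7); lists with lower and higher medians are not plotted.

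The largest shifts were at genes of varied function. The first, 81.3 points, was at jvl (FBgn0263929), a microtubule-associated protein, in a peak at chr3R:14749404-14749807 with its summit in the 5' UTR, with signals of 60.5, 236 and 26.2 and percentiles 2.31, 83.6 and 2.31. The t-cup summit, 519 bp upstream of its start site, shifted by 78.2 points, and simj, a subunit of the NuRD chromatin complex, by 75.6. SCaMC, a mitochondrial carrier with an intronic summit that held TGACGT, followed at 72.6, CG6785 at 72.5 and Agpat3 at 72.5. After sta came osp (71.3, summit 3520 bp into the gene), the endocytic receptor gene mgl (70.9) and ps, the Pasilla splicing factor gene (70.4). In all 10 of these peaks replicates 1 and 3 were below percentile 29. Farther than 500 bp from a start site the leaders were t-cup, SCaMC, osp, GATAd (70) and the latrophilin gene Cirl (69.3). By pooled signal the leading members were hll (960, 2921 bp upstream of the start site), yps, a Y-box RNA-binding protein (935), Fic, which modifies the ER chaperone BiP (896), ergic53 (882) and CNPYb (841).

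The values that chose the members were as follows and support no test. Shifts ran from 21.6 to 81.3 points. The median percentile of members was 15.1, 55.7 and 12.8 in replicates 1, 2 and 3, and the median signal 88.0, 129 and 41.7, beside 162, 115 and 87.4 in the others. Just inside the boundary lay Map60 (percentiles 9.06, 32.2 and 12.2) and Nepl8 (2.17, 25.1 and 4.97), and just outside RpS7 (35.8, 46.5 and 14.1) and CG4592 (55.9, 70 and 41.1); Nepl8 and RpS7 tied and were separated by genome order. Members were weak peaks, with a median pooled signal of 258 against 346, and only 55 of them lay in the strongest of the 3 signal classes. Weak signal was not particular to them. The median was 267 in the replicate 1-high peaks, 254 in the replicate 3-high peaks and 276 in the tenth with the lowest shift. A q-value of 0.05 or less was reached by 90.4%, 100% and 65.1% of members in replicates 1, 2 and 3.

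Features of the replicate 2 list as a whole moved with these results. It held exactly 30000 entries, a round total that may be a cap on the list, and 16056 of them passed a q-value of 0.05, against 21686 and 9930 in replicate 1 and 23357 and 8109 in replicate 3. The summits of its 7291 strongest entries averaged 37.2% GC, against 34.2% and 34.9% in replicates 1 and 3, and 53.4% of them lay at promoters, against 46.1% and 44.0%. The part of list length, depth or base composition in the ranks was not tested, and read totals and the control were not analysed here. At each replicate's own summits the UPR element was in 23, 33 and 26 of the 697 members for replicates 1, 2 and 3 and in 11, 15 and 9 of the 6269 others.

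Members lay near one another somewhat more often than other peaks did. The nearest other peak was a member for 113 of 697 members (16.2%, 13.6 to 19.2%) and for 8.65% (7.96 to 9.37%) of the others. Another member lay within 10000 bp for 26.4% (23.2 to 29.8%) and 18% (17.1 to 19%). Some neighbours shared replicate peaks. Without peaks that shared all of theirs, the shares were 12.7% (10.3 to 15.5%) and 9.58% (8.83 to 10.4%), whose intervals overlap. With the top 20% as members the first share was 27.9%, beside 17.1%.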

How the data were processed

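Peak lists of 3 Xbp1-GFP ChIP-seq replicates, 1 group, were analysed in the dm6 build; the dm3 lists were not used, and 0 columns of other samples were set aside. The authors' deposited lists give for each peak a signal value whose scale is not stated, a −log10 of the q-value, and the summit position as an offset from the start. For the aligner, the caller of peaks and their versions, the record is: not given in the sources used here. Signal was used only to rank peaks within a list; depth is unknown.

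Summits were placed on the Ensembl BDGP 6.54 annotation (release 115), coding sequence taking precedence over UTRs, other exons and introns, and the Release 6 sequence. The 19 motifs were searched on both strands, from 50 bp before to 50 bp after the summit. Of the entries in 37 gene lists, 529 matched by symbol, 26 by synonym and 21 not; 13 lists used symbol patterns. After the data were seen, 4 entries were removed as wrongly listed (Der-1, DnaJ-1 and CG5885 from chaperones, inaE from degradation). Members and lists were chosen with earlier results of these data known. Genes were named for the 10 largest shifts, the 5 strongest members, the 5 leading distal members, the leading gene of each list and 2 peaks on each side of the boundary; UPR element peaks and secretory members were named in addition. The procedures were tested on simulated data. Tables were handled with pandas 2.3.3 and NumPy 2.4.6 in Python 3.11.15, intervals came from SciPy 1.17.1, and figures were drawn in Matplotlib 3.10.9.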

Additional observations from a re-analysis of the deposited data

How the results depend on the processing

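Alternatives changed the size of the 4 differences, and the direction of 1 in 1 GC class; those for TGACGT were chosen after seeing the data. The promoter difference of 25.1 points was 21.0 with the top 5%, 2.90 with −log10 q-value ranks and 30.3 with a promoter distance of 200 bp. It ranged from 21.1 to 23.1 when replicate 1 or 3 was left out, and from 22.2 to 26.5 under 9 further settings. The GC difference of 8.67 points was 9.95 with the top 5%, 6.07 with the top 20%, 3.8 with q-value ranks, 6.69 with q of 0.05 or less in every replicate, 3.65 in windows reaching 150 bp to each side and 3.63 over whole peaks, and 7.77 to 8.17 without replicate 1 or 3. The share of members next to a member was 16.2%, beside 8.65% of other peaks. It was 12.6% beside 4.58% with the top 5%, 27.9% beside 17.1% with the top 20%, and 12.8% beside 8.95% with q-value ranks. With the peak of nearest summit it was 13.2% beside 9.35%, and without overlapped weaker peaks 12.1% beside 9.37%. With replicate summits within 100 bp it was 13.0% beside 9.36%. Without replicate 1 it was 15.8% beside 8.6%, and without replicate 3 it was 17.1% beside 9%. The TGACGT difference of 7.95 points was 13.7, 4.65, 4.13, 10.8 and 5.01 with the top 5%, the top 20%, q-value ranks, log2 signal ratios and q of 0.05 or less, and 7.16 to 8.27 without replicate 1 or 3. It was -0.373, 4.82 and 11.4 in the GC classes from low to high, 5.84 at promoters and 11.5 away from promoters. For q-value ranks most peaks tie at the highest value. The cause of the changes was not tested, for q-value ranks, GC classes or windows. Leaving out replicate 2 leaves no rule. No paired analysis was possible because there was a single group.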

Other observations

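Entries of the replicate lists that overlapped no thresholded peak were not used by the selection, and they come from the same libraries. Among the 1000 strongest of these in each replicate, 27.0%, 62.5% and 23.3% lay at promoters in replicates 1, 2 and 3, with mean GC of 34.6%, 44.2% and 36%. TGACGTGG lay within 50 bp of 2, 18 and 5 of these summits and TGACGT of 8, 64 and 13. Among all such entries with a q-value of 0.05 or less, 2584, 8131 and 1316 in number, the UPR element was in 0.348% (0.159 to 0.660%), 0.922% (0.726 to 1.15%) and 0.456% (0.167 to 0.990%). The 325 thresholded peaks missed in at least 1 replicate include 20 missed in replicate 1, 204 in replicate 2, whose list of exactly 30000 entries may be capped, and 110 in replicate 3.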
